A study of Mus musculus with 4 samples.

Results

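The genes described here are 8 transcription factors of the thalamus and neighbouring diencephalon: Tcf7l2, Gbx2, Olig3, Irx1, Irx2, Shox2, Lhx9 and Barhl2. They were selected on their raw counts in these same 4 libraries, as genes high in the library WT25F and low in the other 3, and all 8 were found by symbol among the 22084 genes of the deposited tables. Their height in WT25F is therefore a description and not a result, and no test of it is given.

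RNA-seq was performed on brain tissue of mouse embryos of the B6D2F2 strain at the embryonic age E13.5, in 4 libraries of 17791641 to 18509743 counts. Libraries KO26F and KO23M are labelled TCF20-/-, a knockout of the chromatin-associated transcriptional coregulator Tcf20, and WT25F is labelled TCF20+/+. The remaining library, WT22M, is named as wild type in its title but has TCF20+/- in its genotype field, so it is treated here as a carrier of at least 1 intact allele. The tissue is labelled telencephalic, while the extraction protocol speaks of cerebral cortex. The labels do not state the litter of each embryo or which part of Tcf20 was deleted, and p-values measure only the spread between these libraries. Tcf20 itself was at 118 counts per 1000000 counts (CPM) in WT25F, 111 in WT22M, 98.6 in KO26F and 103.8 in KO23M. Both knockouts were thus below WT22M and WT25F, but the difference was small and not called (log2 fold change -0.18, edgeR adjusted p = 0.9997). Without the position of the deletion, this gene-level count does not check the labels.

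The thalamus is the diencephalic relay for sensory input to the cortex, and it lies directly behind the telencephalon in the embryonic brain. Its progenitors are patterned by signals from the zona limitans intrathalamica, a narrow organizer that secretes Sonic hedgehog, and its neurons are specified by a small set of homeobox, basic helix-loop-helix and high-mobility-group transcription factors. Several of these factors are standard markers that separate thalamus from cortex at this age. The tissue was checked against telencephalic markers first. Emx1, which marks the dorsal telencephalon, ranged from 107 CPM in WT25F to 139.98 CPM in KO23M. All 13 dorsal telencephalic markers were detected in every library.

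In WT25F, the 8 transcription factors together reached 103 CPM, against 43.6 CPM in KO26F, 40.2 CPM in KO23M and 39.1 CPM in WT22M. The other 3 libraries, which include both knockouts and a carrier, thus lay close together. Each of the 8 genes had its highest CPM in WT25F, but the size of the difference was uneven. Tcf7l2, Gbx2, Olig3, Irx1, Irx2 and Shox2 were at least 2 times the highest other library, whereas Lhx9 and Barhl2 were not. For reference, 30 of 16252 genes that passed a low-count filter, or 0.185%, had WT25F at 2 times the highest other library or more. Irx2 and Shox2 did not pass that filter, which can remove genes with reads mainly in WT25F. The matching count among the selected genes is therefore 4 of 6, and those 4 are among the 30. WT25F was the highest of the 4 libraries for 25.4% of the filtered genes. Since the genes were picked on this contrast, that share is background only.

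The sequence upstream of the start site is shown for 4 of the genes in which WT25F stood out, and for Barhl2 as the gene with the smallest difference between libraries. Each is the 250 bases before the annotated start site (RefSeq, build GRCm38.p6), written 5′ to 3′ on the gene's strand, with motif matches in capitals. RefSeq windows matched 7 of the 8 genes. Core sites of Tcf and Lef factors were searched on both strands, as CTTTGA and also as the close variant CTTTGT. The other motifs searched on both strands were TAATTA, a core site of homeobox factors, and the E-box CAGCTG together with a second E-box form, CACGTG. The general promoter elements TATAAA, known as the TATA box, and CCAAT were searched in the same way. No searched motif shares its letters with another in these windows.
Tcf7l2, chr19:55741560-55741809, plus strand: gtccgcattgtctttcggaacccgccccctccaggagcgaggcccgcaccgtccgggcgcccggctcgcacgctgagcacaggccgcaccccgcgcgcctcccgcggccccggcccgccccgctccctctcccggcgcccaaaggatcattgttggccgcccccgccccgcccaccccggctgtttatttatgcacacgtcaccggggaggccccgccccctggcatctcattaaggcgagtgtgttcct
Gbx2, chr1:89931177-89931426, minus strand: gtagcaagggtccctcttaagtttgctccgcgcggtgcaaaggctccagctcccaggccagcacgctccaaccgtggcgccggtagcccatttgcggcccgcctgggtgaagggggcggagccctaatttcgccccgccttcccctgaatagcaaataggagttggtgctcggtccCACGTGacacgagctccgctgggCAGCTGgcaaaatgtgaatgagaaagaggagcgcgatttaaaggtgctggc
Olig3, chr10:19356289-19356538, plus strand: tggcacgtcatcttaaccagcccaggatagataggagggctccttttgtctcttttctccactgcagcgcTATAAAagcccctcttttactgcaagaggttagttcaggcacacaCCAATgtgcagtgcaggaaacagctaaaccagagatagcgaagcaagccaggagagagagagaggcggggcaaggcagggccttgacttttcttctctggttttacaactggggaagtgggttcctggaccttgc
Shox2, chr3:66981772-66982021, minus strand: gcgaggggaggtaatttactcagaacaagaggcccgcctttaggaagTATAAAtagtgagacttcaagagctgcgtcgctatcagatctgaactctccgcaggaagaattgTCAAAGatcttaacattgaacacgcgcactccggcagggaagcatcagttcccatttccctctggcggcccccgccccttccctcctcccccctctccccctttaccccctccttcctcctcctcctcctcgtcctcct
Barhl2, chr5:106458167-106458416, minus strand: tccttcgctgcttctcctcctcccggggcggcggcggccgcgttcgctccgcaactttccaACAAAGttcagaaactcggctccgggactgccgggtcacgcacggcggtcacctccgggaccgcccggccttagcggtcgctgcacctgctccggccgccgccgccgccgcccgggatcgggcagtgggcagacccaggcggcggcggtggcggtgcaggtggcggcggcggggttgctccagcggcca

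These windows had little in common in their letters. The main Tcf7l2 window held none of the motifs and was 72.8% G and C, against a median of 52.4% over 32841 windows of the same length. A second Tcf7l2 window, not shown, has its start site 153511 bases from the start of the gene. It held CTTTGT 14 bases before that start site and TATAAA, on the opposite strand, 242 bases before it. The Gbx2 window held both E-boxes, CACGTG 74 bases and CAGCTG 51 bases before the start site, motifs present in 6.02% and 13% of all windows. In the Olig3 window, TATAAA began 180 bases and CCAAT 135 bases before the start site. TATAAA also lay 203 bases before the Shox2 start site, and 12.4% of all windows hold it. The Shox2 window carried CTTTGA on the opposite strand (13.8% of all windows), and the Barhl2 window carried CTTTGT on the opposite strand (16.5% of all windows). With the Lhx9 window and the second Tcf7l2 window, CTTTGT was in 3 of the 8 windows of these genes. TAATTA was in none of the 8 windows of these genes and in 4.84% of all windows. A match of this kind is a description of letters and was not linked to any binding data.

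Tcf7l2 is a high-mobility-group transcription factor that carries Wnt and beta-catenin signals to target genes, and it is a marker of thalamic, habenular and pretectal neurons. It lies on chromosome 19 from 55741810 to 55933654 in the files. Its count was 827 in WT25F, 140 in WT22M, 202 in KO26F and 180 in KO23M. WT25F was the only library above 202 counts, and WT22M had the lowest count. In CPM, Tcf7l2 was at 46.1 in WT25F, 7.87 in WT22M, 11.1 in KO26F and 9.72 in KO23M. The ratio of WT25F to the other 3 libraries pooled was 4.81, with a 95% interval of 4.30 to 5.37 that covers counting error only. Tcf7l2 alone made up 36.5 CPM of the excess of WT25F over the other libraries, more than the excesses of the 7 other genes added together.

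Gbx2 and Olig3 stand at successive steps of thalamic development. Olig3 is a basic helix-loop-helix factor of thalamic progenitors and of the zona limitans, and Gbx2 is a homeobox factor switched on in newly born thalamic neurons, where it is needed for thalamocortical axon growth. Olig3 had 61 counts in WT25F, 19 in WT22M, 12 in KO26F and 14 in KO23M. Gbx2 had 126 counts in WT25F, 35 in WT22M, 33 in KO26F and 51 in KO23M. The progenitor gene and the neuronal gene were thus both highest in WT25F, and for both the counting intervals of the other 3 libraries overlapped. The pooled ratio was 4.11 for Olig3 (95% counting interval 2.75 to 6.18) and 3.21 for Gbx2 (2.48 to 4.16).

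Irx1 and Irx2 are Iroquois homeobox factors, used as markers of the territory behind the zona limitans. They are neighbours in a gene cluster on chromosome 13, Irx1 from 71957921 to 71963723 and Irx2 from 72628820 to 72634198, separated by 665 kb. Irx1 had 51 counts in WT25F, 12 in WT22M, 9 in KO26F and 16 in KO23M. Irx2 had 43 counts in WT25F, 3 in WT22M, 2 in KO26F and 6 in KO23M. Irx2 was thus close to absent outside WT25F, while Irx1 was low but present in every library. Pooled over the other 3 libraries, the ratio was 4.18 for Irx1 (95% counting interval 2.68 to 6.57) and 11.9 for Irx2 (6.01 to 25.5). The related Iroquois genes Irx3 and Irx5, which form a separate cluster, had their highest counts in the same library. Irx3 had 43 counts in WT25F, 21 in WT22M, 26 in KO26F and 14 in KO23M, and Irx5 had 17, 2, 6 and 2 in the same order.

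Shox2 is a homeobox factor expressed in post-mitotic neurons of the caudal thalamus. It had 62 counts in WT25F, 2 in WT22M, 3 in KO26F and 0 in KO23M. It was therefore detected well in WT25F and was at or under 3 counts in each other library. Against KO23M, WT25F was at least 21.3-fold higher when the library at 0 is set to a floor of 3 counts. Over the other 3 libraries pooled, the ratio was 37.6, with a 95% counting interval of 15.3 to 119.9. Shox2 overlaps Rsrc1 on the opposite strand. Rsrc1 had 529 counts in WT25F, 461 in WT22M, 531 in KO26F and 497 in KO23M. The sources used here do not say whether counting used strand, so reads of this pair cannot be assigned by strand. In CPM, Rsrc1 was at 29.5 in WT25F and between 25.9 and 29.3 in the other libraries, and its part in the Shox2 counts was not tested.

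Lhx9 is a LIM-homeobox factor of thalamic neurons that is also expressed in parts of the embryonic telencephalon. It had 471 counts in WT25F, 305 in WT22M, 343 in KO26F and 300 in KO23M. The excess in WT25F was modest against a substantial level in every library, with a pooled ratio of 1.51 (95% counting interval 1.35 to 1.68). Barhl2, a Bar-class homeobox factor with a role in diencephalic patterning, had 210 counts in WT25F, 179 in WT22M, 186 in KO26F and 177 in KO23M. Its 4 values lay close together, and the pooled ratio was 1.18 with an interval of 0.997 to 1.38. Against the 3 libraries singly, the ratio was 1.14 to 1.22 for Barhl2 and 1.39 to 1.62 for Lhx9. The intervals cover counting error only and the genes were selected on these values, so no test is read from them. Just inside and just outside the 2-fold line used here were Gbx2, at 2.55 times the highest other library, and Lhx9, at 1.39 times.

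**Figure D1:**
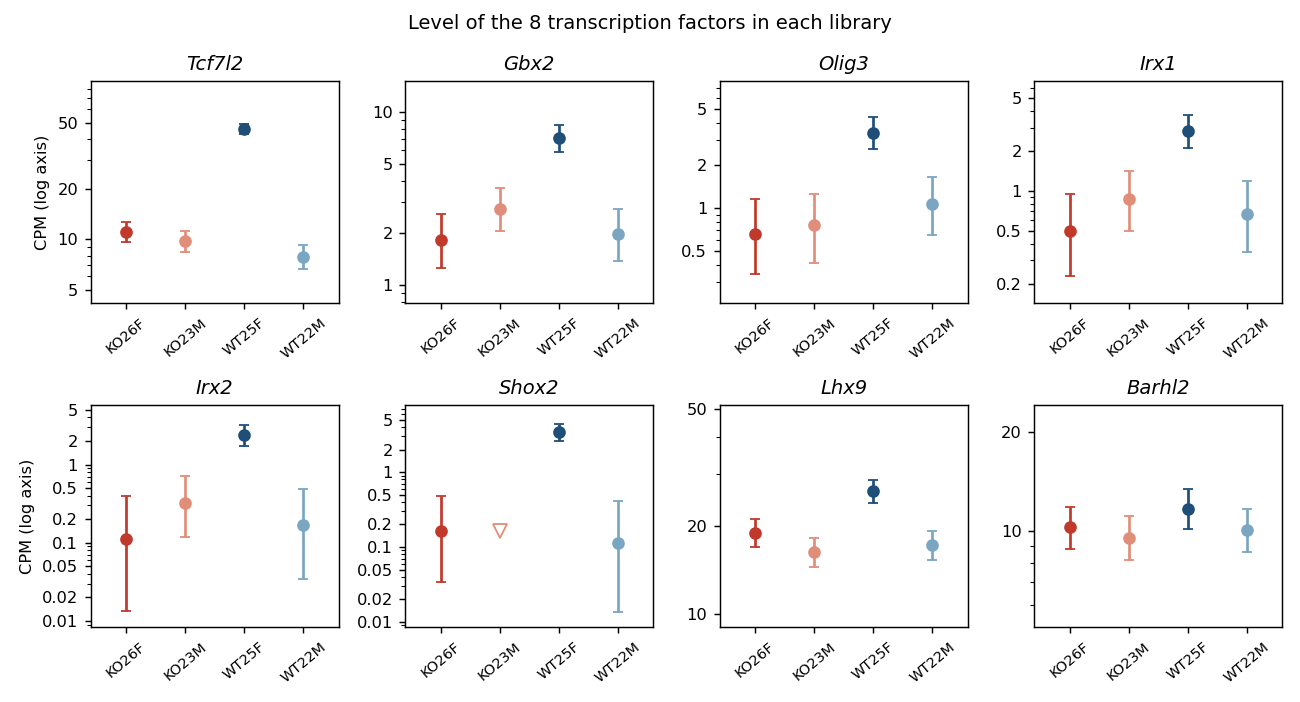
Level of each of the 8 transcription factors in each library, in CPM on a log axis with a separate scale per gene; each point is 1 library and bars are 95% counting intervals. The open triangle marks the 3-count floor of the library in which Shox2 was at 0; WT25F is the highest point in every panel, with the smallest gap for Barhl2.

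**Figure D2:**
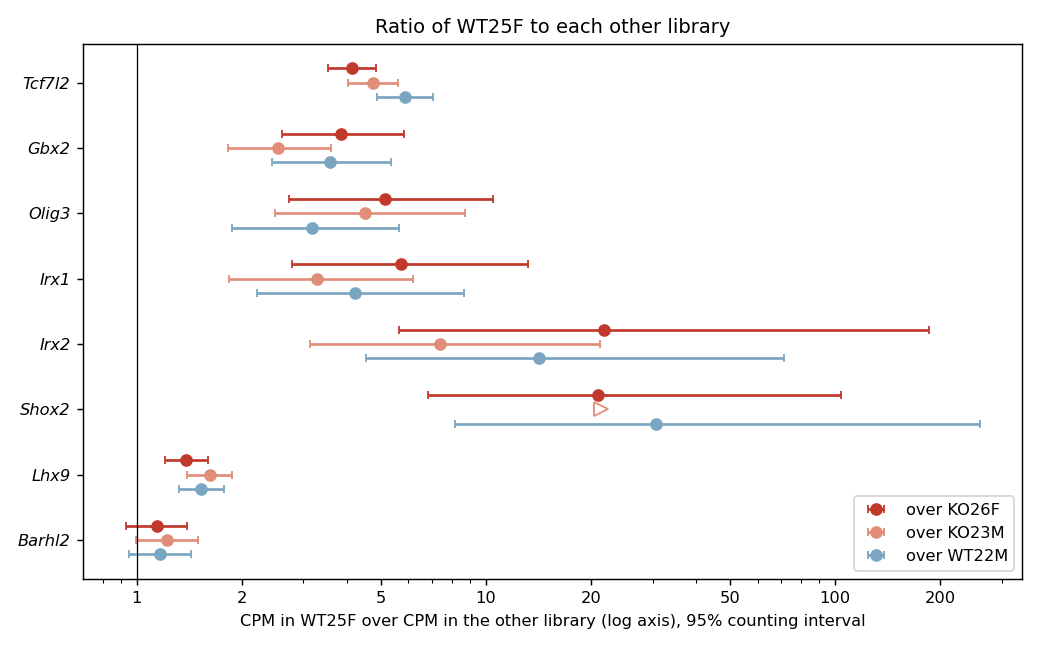
Ratio of CPM in WT25F to CPM in each of the other 3 libraries for the 8 genes, on a log axis with 95% counting intervals. The ratios are smallest for Barhl2. They are largest, with the widest intervals, for Shox2 and Irx2, the genes with the fewest counts outside WT25F. The intervals cover counting error only and are no test, since the genes were selected on these values.

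Divided by the total exon length of each gene, the order of levels differed between WT25F and the other libraries. In WT25F, Tcf7l2 was at 5.25 CPM per kb and Barhl2 at 5.06, with overlapping counting intervals, followed by Gbx2 at 3.23 and Lhx9 at 2.76, whose intervals also overlapped. Olig3 followed at 1.64 CPM per kb, and Irx1 at 1.08, Shox2 at 1.04 and Irx2 at 0.730 closed the order with intervals that overlapped one another. In the other 3 libraries pooled, Barhl2 led at 4.30 CPM per kb, followed by Lhx9 at 1.83, Tcf7l2 at 1.09 and Gbx2 slightly below it. Shox2 was lowest at 0.0277 CPM per kb. Lhx9 and Barhl2 together supplied 36.8% of the summed counts in WT25F, against 69.6% in WT22M, 67.0% in KO26F and 64.1% in KO23M. The mix of these transcription factors thus also differed in WT25F. It restates the uneven differences in the counts on which the genes were selected, and is a description and no separate result. In bulk tissue, a larger number of cells of a type and more RNA per cell cannot be told apart.

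**Figure D3:**
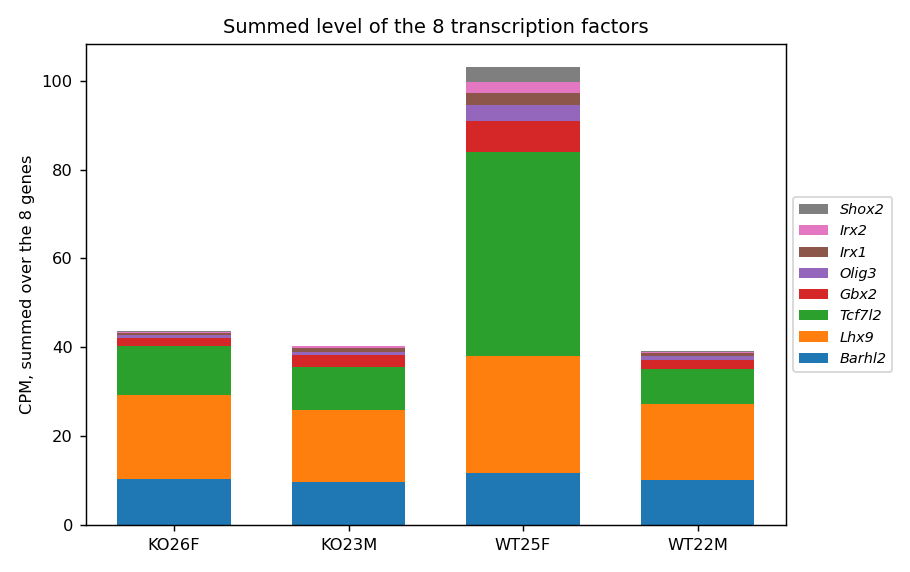
Level of the 8 transcription factors stacked for each library, in CPM summed over the genes. WT25F reaches 103 CPM against 39.1 to 43.6 CPM in the other libraries, and most of the added height is Tcf7l2.

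The comparison of knockouts with carriers holds WT25F, the library on whose values these genes were chosen. Their fold changes, errors and p-values in it are therefore a description, with the calls over all genes beside them. Whether loss of Tcf20 changed these genes was not tested apart from that choice. When both knockouts were set against both carriers, none of the 6 of these genes that passed the low-count filter was called by edgeR's quasi-likelihood test (adjusted p = 0.9997 for each), and over all genes 10 of 16252, or 0.0615%, were called. DESeq2 called none of the 6 either. Of the 6, 2 (Olig3 and Irx1) had an unadjusted edgeR p under 0.05, against 464 of 16252 over all genes. The log2 fold change of knockouts over carriers was -1.64 (SE 0.51) for Olig3 and -1.35 (SE 0.62) for Irx1. For Tcf7l2 it was -1.36 with an SE of 1.18, and the 2 carriers had the highest and the lowest value of the 4 libraries. Gbx2 had -0.97 (SE 0.72), Lhx9 -0.31 (SE 0.18) and Barhl2 -0.14 (SE 0.18). Irx2 and Shox2 did not pass the filter. Without WT25F, 3 of the 6 values changed sign, to 0.38 for Tcf7l2, 0.20 for Gbx2 and 0.01 for Lhx9. Leaving out KO23M gave 1 call among the 6 (Tcf7l2, log2 fold change -1.29), with 110 genes called over all. Leaving out WT22M gave 4 (Tcf7l2, Gbx2, Olig3 and Irx1), with 57 called over all, but that fit is knockouts against WT25F, the contrast of the selection, and nothing is read from it.

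Setting the knockouts against WT22M gave a contrast without WT25F. It is not free of the selection, since a low level in both knockouts and in WT22M was part of it, and its values are given as a description with the calls over all genes beside them. The fit used all 4 libraries in 3 groups, took its spread from the 2 knockouts and assumes that the lone WT22M varies like them. None of the 6 tested genes was called by edgeR (adjusted p of 0.9992 to 0.9997), none had an unadjusted p under 0.05, and DESeq2 called none. Over all genes, 104 of 16252, or 0.64%, were called. The log2 fold change of the knockouts over WT22M was 0.39 (SE 0.22) for Tcf7l2, 0.20 (SE 0.40) for Gbx2 and -0.60 (SE 0.59) for Olig3. It was 0.00 (SE 0.68) for Irx1, 0.01 (SE 0.20) for Lhx9 and -0.04 (SE 0.23) for Barhl2. For the sparse genes Olig3 and Irx1 these errors leave room for differences of some size in either direction, and the missed threshold does not show that the knockouts and WT22M are alike.

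The 2 contrasts that include WT25F share that library and are given side by side as a description, since they hold the values that chose the genes. In knockouts against WT25F, the log2 fold changes were -2.13 for Tcf7l2, -1.60 for Gbx2, -2.24 for Olig3, -2.03 for Irx1, -0.57 for Lhx9 and -0.23 for Barhl2. In WT22M against WT25F, the values were -2.52 for Tcf7l2, -1.80 for Gbx2, -1.63 for Olig3, -2.03 for Irx1, -0.58 for Lhx9 and -0.19 for Barhl2. These values restate the selection, so no test of them is given.

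Other genes of the same territory were examined from a list of 20 thalamic and thalamic progenitor markers outside the 8 genes. Of 17 that passed the filter, 13 were highest in WT25F, and their median log2 ratio of WT25F to the pooled other libraries was 0.27, against 0.02 over all genes. Summed over the 20 markers, the level was 458 CPM in WT25F and 417 to 452 CPM in the others, and no marker was at 0 in any library. The largest single part of each sum was Neurog2, which was lowest in WT25F. Rora, a nuclear receptor of differentiating thalamic neurons, had 115 counts in WT25F, 40 in WT22M, 51 in KO26F and 47 in KO23M, and was the only tested marker of this list at 2-fold. The contrast of WT22M with WT25F is 1 library against 1, with its spread taken from the 2 knockouts. Its calls compare libraries only. Knockouts against WT25F likewise has a single library on the WT25F side. In WT22M against WT25F, where 87 of 16252 genes (0.535%) were called lower, 3 of the 17 were called lower and none higher: Rora (log2 fold change -1.48), Ntng1 (-1.09), which encodes the axonal adhesion protein netrin-G1, and Calb2 (-0.77), which encodes the calcium-binding protein calretinin. In knockouts against WT25F, where 29 of 16252 (0.178%) were called lower, 1 of the 17 was, Calb2 (-0.67), and in knockouts against WT22M none was called. With no filter on low counts, no gene at all was called in these 3 contrasts. Other abundant genes of the list, among them the proneural gene Neurog2 and the glutamate transporter gene Slc17a6, were at similar levels in WT25F and the other libraries. Neurog2 was at 207 CPM in WT25F and 223 to 257 CPM in the others, and Slc17a6 was between 29.6 and 31.9 CPM in all 4. Cortex also expresses both genes. Markers of the rostral thalamus, chosen for mention after their values were seen, were uneven. In WT25F, WT22M, KO26F and KO23M, Sox14 had 13, 3, 6 and 1 counts and Gata3 had 13, 5, 1 and 4 counts. Nkx2-2, also of this list, had 32, 13, 20 and 3 counts. In the same order, Gata2 had 63, 60, 37 and 60 counts and Tal1 had 68, 66, 58 and 53 counts. Gata2 and Tal1 were thus not set apart in WT25F.

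Lists for adjoining regions of the embryonic brain were measured in the same way. The habenula and pineal list had a median log2 ratio of 0.21 over 10 genes, with 4 highest in WT25F and none called in any contrast. Within it, Pou4f1, a POU-domain factor of habenular neurons named here after its values were seen, had 37 counts in WT25F, 5 in WT22M, 6 in KO26F and 13 in KO23M. Other genes of this list went the other way. In the same order, Chrnb4 had 10, 23, 29 and 20 counts and Tac1 had 242, 259, 306 and 336 counts, both lowest in WT25F. The zona limitans and hedgehog list had a median of 0.18 over 6 genes, and Shh, the organizer's signal, had 39 counts in WT25F, 30 in WT22M, 29 in KO26F and 35 in KO23M. The medians were 0.04 over 11 hypothalamic genes and 0.08 over 4 pretectal and midbrain genes. In the hypothalamic list, Otp, a homeobox factor of neuroendocrine neurons, was called lower in knockouts than in WT25F, with 252 counts in WT25F, 121 in WT22M, 143 in KO26F and 72 in KO23M. Bsx, another homeobox factor, was called lower in knockouts than in WT22M, where it had 55 counts. No other gene of these 4 lists was called in any of the contrasts.

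Paralogs of the 8 genes had no common direction. Of 8 tested paralogs, 4 were highest in WT25F, none was at 2-fold and none was called in any contrast, with a median log2 ratio of -0.01. Tcf7, a Tcf and Lef family member, was between 12.4 and 12.98 CPM in all 4 libraries, and Tcf7l1 was lowest in WT25F at 29.9 CPM. Olig2, expressed in ventral telencephalic progenitors, was at 35.9 CPM in WT25F and 36.4 to 42.8 CPM in the others. Gbx1 was at 10.9 CPM in WT25F, within the 7.31 to 13.9 CPM of the other 3. Genes that Wnt signalling is known to induce were examined because Tcf7l2 acts on that pathway. None of 11 was called in any contrast and their median log2 ratio was 0.01. Axin2, a feedback inhibitor and standard readout of Wnt signalling, was at 56.0 CPM in WT25F, 52.2 in WT22M, 57.8 in KO26F and 48.8 in KO23M. Few genes were called at all, in knockouts against carriers 10 of 16252 (0.0615%). No call among the 8 paralogs or the 11 Wnt target genes is thus near the share over all genes, and is no result about them.

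**Figure D4:**
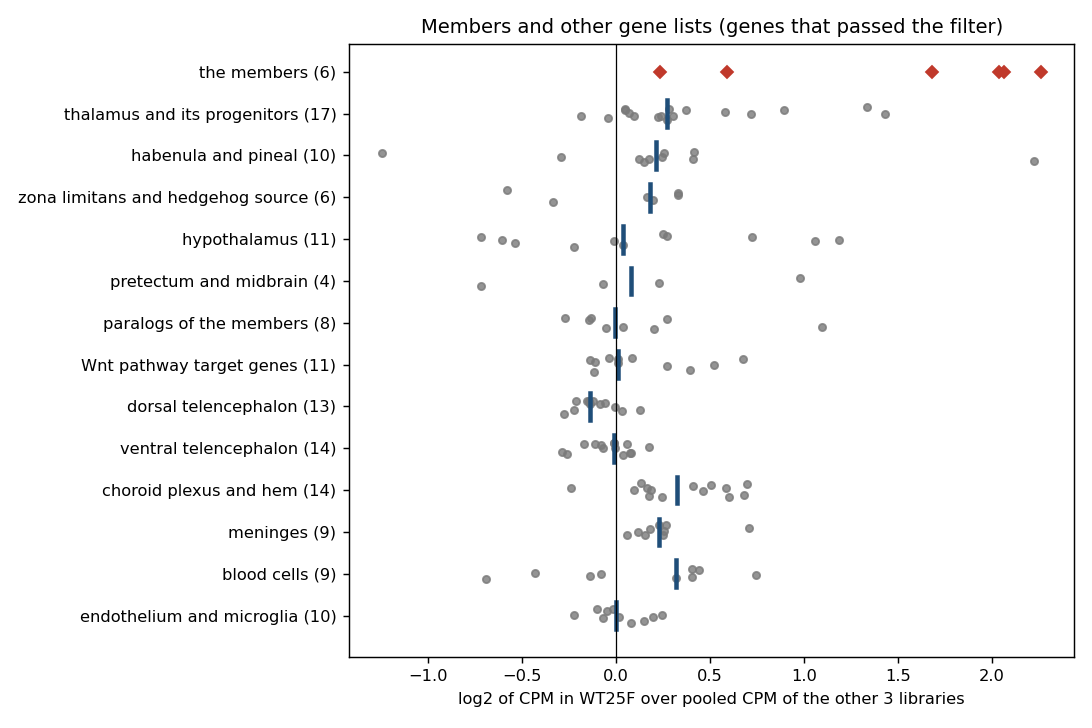
Log2 ratio of CPM in WT25F to the pooled CPM of the other 3 libraries for genes that passed the filter, by list, with the number of genes in brackets; diamonds are the 6 selected transcription factors, grey points are other genes and vertical bars are list medians. The selected factors reach ratios above most other genes plotted, and the dorsal telencephalon list has its median at -0.14.

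Markers of telencephalon and of non-neural tissue were measured beside this pattern, and their part in it was not tested. The dorsal telencephalic markers summed to 3355 CPM in WT25F and to 3515 to 3772 CPM in the other 3 libraries. The median log2 ratio of those 13 genes was -0.14. The 14 ventral telencephalic markers had a median of -0.01, with none highest in WT25F. Of these, Nkx2-1 and Lhx8 were called higher in knockouts than in WT22M, and Nkx2-1 was called lower in WT22M than in WT25F. Choroid plexus and cortical hem markers set a different library apart: they summed to 1006 CPM in WT25F, 247 in WT22M, 1060 in KO26F and 839 in KO23M, and 6 of 14 were called higher in knockouts than in WT22M. The count of choroid plexus genes called lower in WT22M than in WT25F was also 6. Against the pooled libraries, which include WT22M, the median log2 ratio of that list was 0.33. Meningeal markers had a median of 0.23, blood cell markers 0.32, and endothelial and microglial markers 0.00, and blood markers summed to 2167 CPM in WT25F against 1356 to 1775 CPM in the others. Of 9 meningeal genes, Aldh1a2 was called lower in knockouts than in WT25F. Of 9 blood genes, 2 (Hbb-y and Hba-x) were called higher in knockouts than in WT22M, and 2 (Hbb-y and Hba-a1) lower in WT22M than in WT25F. In knockouts against WT25F, Hba-a1 was called lower and its near-identical copy Hba-a2 higher, and counts of such copies are uncertain. Markers of telencephalon, meninges, blood, endothelium and choroid plexus were above 0 in all libraries.

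Across the genome, the genes most like the 8 were ranked by the ratio of WT25F to the highest other library over the 4 libraries, among 12924 genes with at least 50 counts in WT25F. Shox2 ranked 1, Tcf7l2 2, Irx1 5, Olig3 6 and Gbx2 8, while Lhx9 ranked 119 and Barhl2 660. Irx2, with 43 counts, was under the minimum. The other genes closest to the pattern were Ptgds, which encodes a prostaglandin D synthase, and Syt13, a synaptotagmin. Ptgds had 772 counts in WT25F, 152 in WT22M, 168 in KO26F and 197 in KO23M. Syt13 had 1052, 294, 302 and 323 counts in the same order. The next were Gm1821, Gm42047, Gm8797, Rora, A830018L16Rik, Crocc2, Ccl27b, BTF3L4, Hsd11b2 and Erdr1, with ratios from 2.66 down to 1.93. Counts of Gm1821, a processed pseudogene, can include reads of its parent gene and are uncertain.

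**Figure D5:**
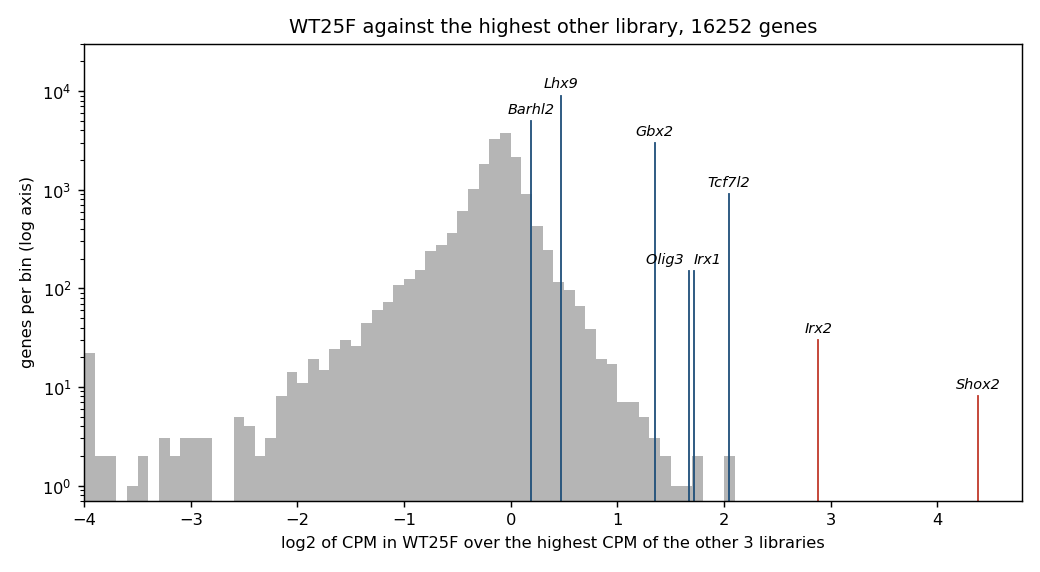
Histogram of the log2 ratio of CPM in WT25F to the highest CPM of the other 3 libraries over the genes that passed the filter, with the number of genes on a log axis and ratios at or under -4 in the leftmost bin. Vertical lines mark the 8 transcription factors, blue for the 6 that passed the filter and red for Irx2 and Shox2, which did not; line height has no meaning.

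The nearest genes beside the 8 that passed the low-count filter did not have the same pattern. These lay from 3.41 to 1116 kb away. The filter also removed Irx2 and Shox2, so a closer neighbour with reads mainly in WT25F could have been left out, and such genes were not examined. The nearest tested neighbours on each side of the 8 genes, 16 positions in all, had ratios of WT25F to the highest other library between 0.654 and 1.09. Next to Tcf7l2, Vti1a was at 39.0 CPM in WT25F, 37.5 in WT22M, 42.5 in KO26F and 37.8 in KO23M. Next to Gbx2, Agap1 was at 235 CPM in WT25F, 218 in WT22M, 229 in KO26F and 211 in KO23M. Gbx2 (89927956 to 89931179) and Lhx9 (138825186 to 138848577) both lie on chromosome 1, far apart. Shox2 lies on chromosome 3 (66971727 to 66981771), Barhl2 on chromosome 5 (106452523 to 106458166) and Olig3 on chromosome 10 (19356533 to 19358604). Irx1 and Irx2 are thus the single close pair among the 8.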

How the data were processed

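Gene counts for 4 libraries were taken from 3 deposited tables, joined on gene identifier to 22084 genes. Per the submitters' processing notes, Bowtie2 2.2.3, TopHat2 2.0.12, HTSeq 0.6.0 and the build mm9 were used; gene positions in the deposited tables instead match GRCm38 annotation for 91.8% of genes. Raw counts per gene were made by the authors, without normalization, per the file headers. The authors also deposited their own normalized values, fold (log2) changes and p-values, not used here. CPM (counts per 1000000 counts) was computed here from the deposited counts and library totals; totals were 17791641 to 18509743 counts, so a floor of 3 counts is 0.162 to 0.169 CPM.

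Tests used edgeR 4.0.16 quasi-likelihood fits (robust, TMM, filterByExpr, 16252 genes, Benjamini-Hochberg over all, threshold 0.05). They were made on the counts of KO against both carriers and of 3 groups (KO, WT25F, WT22M), with DESeq2 1.42.0 as an alternative, in R 4.3.3. The fits were tried on simulated counts in which 200 of 16252 genes were changed. KO against carriers gave 11 false calls there and KO against WT22M gave 59, so calls of the 3-group fit can hold many false ones. Intervals are exact Poisson or conditional binomial at 95% and cover counting error only. Exon lengths came from GENCODE annotation of GRCm38, start sites and promoters from RefSeq.

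The 8 genes and the 13 gene lists (157 of 164 symbols found) were chosen with earlier results of these data known. Named beside the 8 were the 12 genes of most similar pattern, called or most abundant list genes, paralogs and Tcf20. Alternatives were size factors, DESeq2, filters, fold limits, the spread of the other fit, a title-letter block and leaving out each library.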

Additional observations from a re-analysis of the deposited data

How the results depend on the processing

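With 2 libraries per arm at most, counts of called genes depended on the fit. Knockouts against carriers gave 10 calls, 123 with the title letter (F or M) as a block and 42 to 110 with 1 library left out. Of the 6 tested transcription factors, 0 were called, and 0 to 4 with 1 library left out. Without WT25F, the log2 fold change turned to 0.38 for Tcf7l2, 0.20 for Gbx2 and 0.01 for Lhx9; the lowest values with 1 library left out were -2.13, -1.60 and -0.57, without WT22M. Knockouts against WT22M gave 104 calls, 28 with DESeq2, 0 with no filter and 7 with the spread of the fit of knockouts against carriers. Knockouts against WT25F gave 56 calls, then 23, 0 and 10 under those settings. WT22M against WT25F gave 116 calls, then 33, 0 and 0. The cause of these changes was not tested. The share of genes with WT25F at 2 times the highest other library, 0.185%, was 1.12% at 1.5-fold, 0.0308% at 3-fold, 0.0801% among genes with 1 CPM in 2 libraries and 0.492% to 0.732% with 1 other library left out. Of 188 alternative log2 values for the 6 tested genes, 6 had the opposite sign to the value reported: the 3 above, and in knockouts against WT22M Gbx2 at -0.15 without KO23M, Irx1 at 0.35 and Lhx9 at -0.08 without KO26F. Fits of 3 groups without a knockout have no residual degrees of freedom and gave values without a test. Low counts of Irx2 and Shox2 limit any comparison outside WT25F.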
